A study of Mus musculus with 8 samples.

Results

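The Egr genes are 4 genes for zinc finger transcription factors, Egr1 to Egr4, among 21887 protein-coding genes of the gene table used here, and CTCF binding around them was described in mouse cortical neurons with and without NMDA stimulation. The members were chosen by name, and each locus was the annotated gene span with 50 kb on each side. CTCF sites came from ChIP-seq, in which DNA pulled down with an antibody is sequenced, in 2 groups. The NMDA group was wild-type primary cortical neurons from Swiss-Webster embryos of embryonic day 16, held for 13 days in vitro, given 50 µM NMDA, a glutamate receptor agonist, for 10 minutes and left for 50 minutes in medium without the drug. The control group was the same wild-type neurons with no treatment given in the labels. Etoposide is named in the culture text common to the samples, but no label gives it as a treatment of any of them. Each group had 2 replicates, which the labels call biological, and the authors deposited 1 list of reproducible regions for each group, built over both. Conditions are therefore compared as 1 list against 1 list, with no test between them, and the read depth is unknown. The files hold no expression values, so neither the labelled cell type nor induction of the Egr genes could be checked.

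The spans of the genes were taken from RefSeq (GRCm38.p6, the assembly of mm10). Egr1 (gene ID 13653) lies on chromosome 18, 34861207 to 34864956, and Egr2 (13654) on chromosome 10, 67534469 to 67542188. Egr3 (13655) lies on chromosome 14, 70077317 to 70082613, and Egr4 (13656) on chromosome 6, 85511121 to 85513589. A region was assigned to a locus by its summit, the position that the list gives as its highest point. At the 4 loci the NMDA list held 18 of its 36186 regions and the control list 18 of its 33815.

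Egr proteins bind GC-rich DNA through zinc fingers and belong to the immediate early genes, which neurons transcribe within minutes of synaptic activity without new protein synthesis. Calcium entry through NMDA receptors activates ERK kinases, and these act on ternary complex factors bound with serum response factor (SRF) at CArG boxes in Egr promoters. Egr1 is widely used as a marker of recently active neurons. Egr2 is needed for hindbrain segments and for myelin made by Schwann cells, Egr3 for muscle spindles in mice, and Egr4 for male fertility in mice. CTCF is a zinc finger protein that stops loop extrusion by cohesin, so that pairs of its sites anchor chromatin loops.

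Promoter sequences are shown for Egr2 and Egr4, the members found in the promoter table, to set CTCF regions against their annotated start sites. Each covers 250 bases before to 50 after a start site on the gene's own strand (RefSeq, GRCm38.p6). The table held 5 windows for Egr2 and 1 for Egr4. Capitals mark matches, on either strand, to the SRF-bound CArG box or to TGACG, a part of the cAMP response element that CREB binds. No 2 of the matches shown overlap.
Egr2, upstream start site, chr10:67535249-67535548, plus strand: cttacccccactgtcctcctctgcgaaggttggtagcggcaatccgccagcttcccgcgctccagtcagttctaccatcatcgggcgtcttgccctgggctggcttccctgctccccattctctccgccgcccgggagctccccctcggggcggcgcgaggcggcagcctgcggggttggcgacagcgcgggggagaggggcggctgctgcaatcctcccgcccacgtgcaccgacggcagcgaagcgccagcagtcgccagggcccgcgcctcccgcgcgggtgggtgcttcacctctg
Egr2, middle start site, chr10:67537316-67537615, plus strand: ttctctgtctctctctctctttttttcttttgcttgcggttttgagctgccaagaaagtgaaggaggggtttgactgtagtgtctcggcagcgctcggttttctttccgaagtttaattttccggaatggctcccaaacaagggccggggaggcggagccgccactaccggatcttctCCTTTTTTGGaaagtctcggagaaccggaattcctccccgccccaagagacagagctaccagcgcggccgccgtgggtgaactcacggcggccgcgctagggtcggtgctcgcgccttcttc
Egr2, main cluster of start sites, chr10:67537619-67537918, plus strand: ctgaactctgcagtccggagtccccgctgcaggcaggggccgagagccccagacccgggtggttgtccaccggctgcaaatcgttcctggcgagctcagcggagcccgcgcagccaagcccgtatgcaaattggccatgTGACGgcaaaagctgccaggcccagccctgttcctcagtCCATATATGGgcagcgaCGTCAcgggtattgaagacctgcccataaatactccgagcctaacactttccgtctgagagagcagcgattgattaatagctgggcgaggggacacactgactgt
Egr4, only start site, chr6:85513540-85513839, minus strand: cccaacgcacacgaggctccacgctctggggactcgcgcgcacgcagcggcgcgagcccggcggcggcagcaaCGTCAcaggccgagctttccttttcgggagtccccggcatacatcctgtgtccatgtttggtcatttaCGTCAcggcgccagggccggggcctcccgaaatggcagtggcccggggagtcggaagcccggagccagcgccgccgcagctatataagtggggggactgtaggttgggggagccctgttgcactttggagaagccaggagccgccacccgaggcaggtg

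The Egr2 window of the main cluster held a CArG box that began 72 bases before the start site and 2 TGACG matches, at 111 and 55 bases before it. The middle Egr2 window held another CArG box, also 72 bases before its start site, and the upstream window held none of the motifs searched. The Egr4 window held 2 TGACG matches, read as CGTCA on the strand shown, 177 and 109 bases before the start site, and no CArG box. A CArG box occurred in 1.63% of the 32817 promoter windows of the table and TGACG in 20.8%. Also searched were the CTCF core motif (0.558% of windows) and AGNGGGC (25.8%), a shorter pattern close to but not identical with its end. The full element TGACGTCA (1.79%) and the Egr site GCGNGGGCG (5.56%) were searched too. No window shown held any of these. GC content was 72.0% in the upstream Egr2 window, 56.7% in the middle and 60.0% in the main one, and 67.7% at Egr4, against a median of 52.7% over the table.

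CTCF regions lay at different places relative to the 4 genes. At Egr1 the NMDA list had a strong region just outside the lower-coordinate end of the span and a second inside it, and the control list had 1 strong region across that end. Egr2 had a region in both lists with its summit inside the span. Egr4 lay whole under a single wide region in both lists, and Egr3 had no base of its span under a region in either list. The share of the span under regions was 51.1% in the NMDA list and 34.8% in the control list at Egr1, and 32.3% and 23.8% at Egr2. Few genes were like Egr4 in this, with 0.21% of protein-coding genes whole under 1 NMDA region, 0.215% under 1 control region, and 25 genes in both lists. The median span of those 25 genes was 925 bp, and that of Egr4 was 2469 bp. An NMDA summit lay within 1 kb of an end of 2 members, Egr1 and Egr4, as for 29.5% of protein-coding genes, and a control summit of 0, as for 29.0%. The nearest control summits lay 1176 bp from an end of Egr1 and 1103 bp from an end of Egr4, just past that limit.

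**Figure D1:**
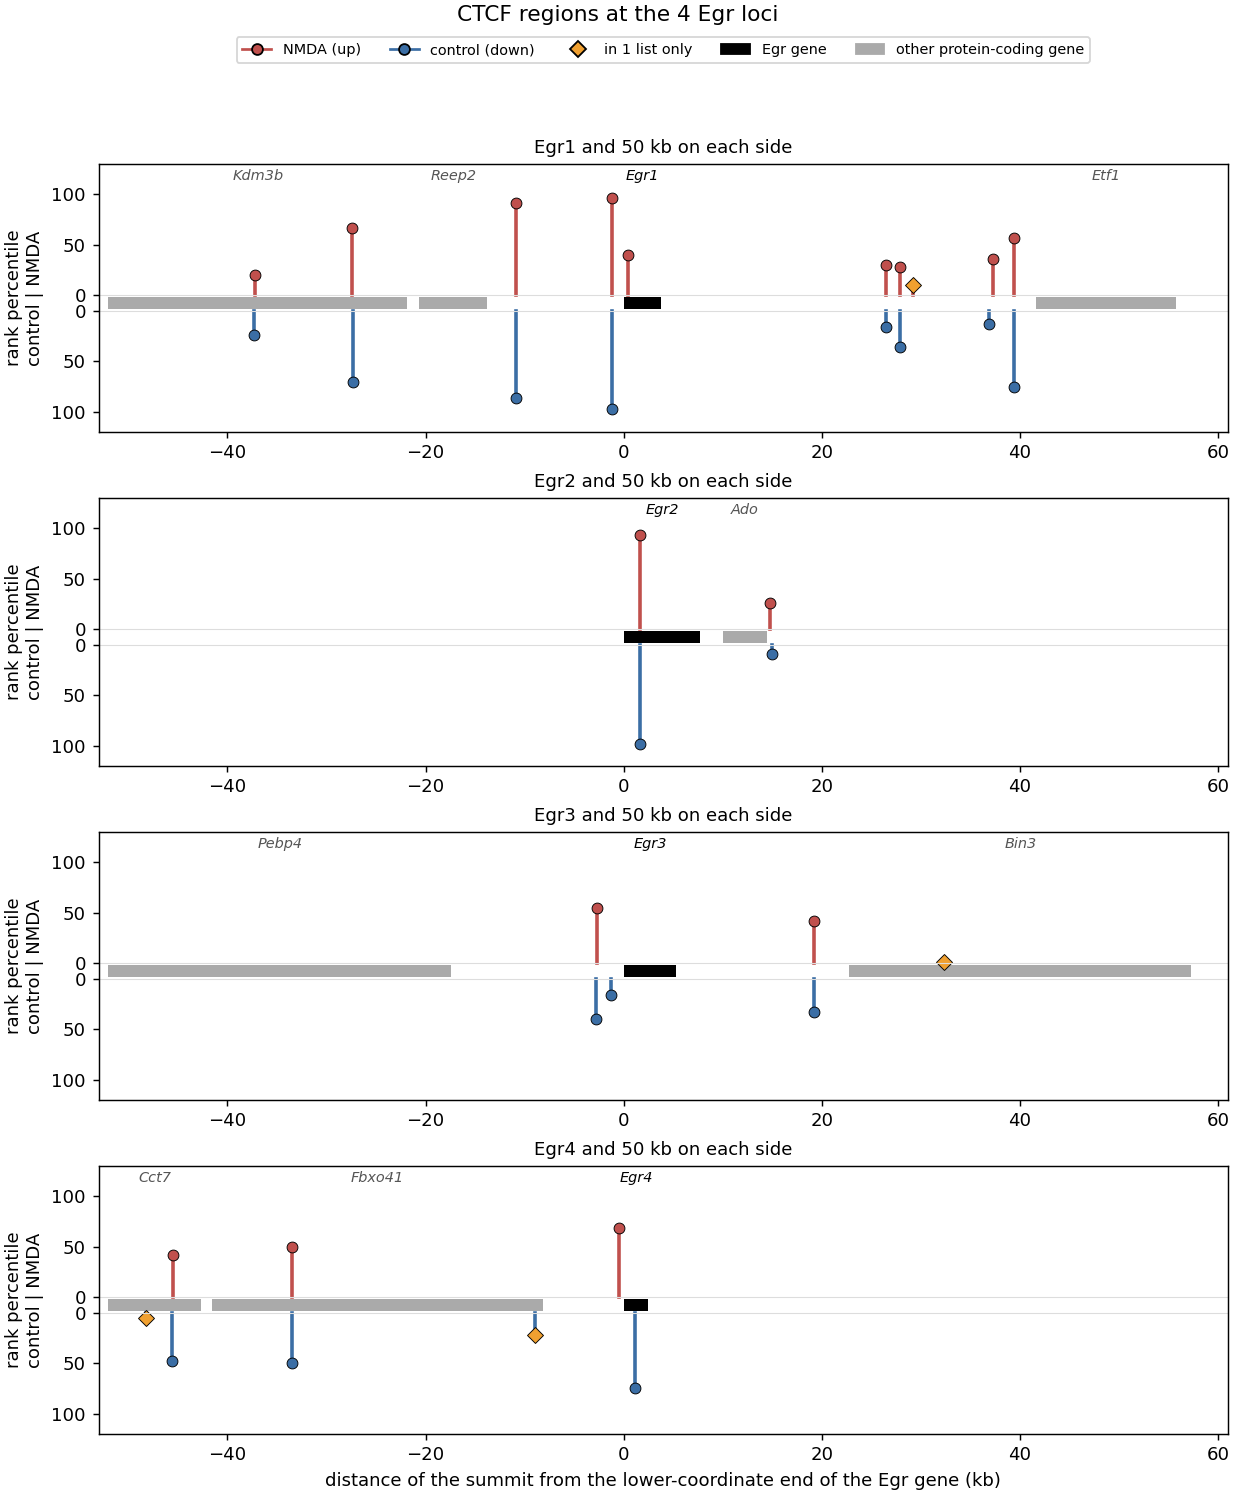
CTCF regions within 50 kb of each Egr gene, with the distance of the summit from the lower-coordinate end of the gene in kb on the x axis and the rank percentile within its list (100 is strongest) as the length of each line, upward for NMDA and downward for control. Orange diamonds are the 4 regions found in 1 list only, and the Egr1 panel holds 10 NMDA and 8 control regions where the Egr2 panel holds 2 of each.

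The Egr1 locus was denser in CTCF regions than the other 3. Within 50 kb, Egr1 had 10 NMDA and 8 control regions, more than most protein-coding genes, at the 95.6th and 90.9th percentile of all such genes. Egr2 had 2 regions in each list (31.8th and 33.7th percentile) and Egr3 had 3 in each (43.5th and 46.3rd). Egr4 had 3 NMDA regions (43.5th percentile) and 5 control regions (70.1st). The median gene had 4 NMDA and 3 control regions. Long genes have wider windows, and among the 7925 genes with spans under 10000 bp the percentiles of Egr1 were 97.1 for NMDA and 93.5 for control. Among the same short genes Egr2 stood at 45.1 and 46.6, Egr3 at 54.8 and 57.0, and Egr4 at 54.8 and 75.8.

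**Figure D2:**
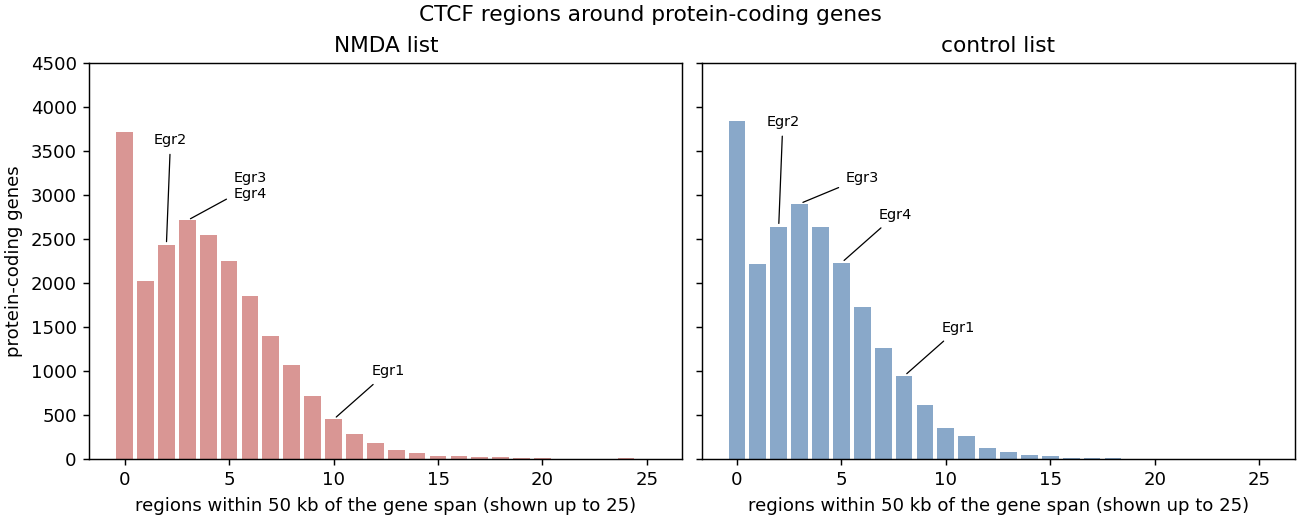
Number of protein-coding genes (y axis) by the number of CTCF regions within 50 kb of the gene span (x axis, shown up to 25), in the NMDA list on the left and the control list on the right. Lines mark the bars that hold the Egr genes, with Egr1 at 10 NMDA and 8 control regions and the others at 2 to 5.

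Regions at the Egr loci were mostly found in both lists. A region counted as shared when it overlapped a region of the other list by at least 1 bp. Of the 18 NMDA regions 2 were NMDA-only, which is 11.1% (95% Wilson interval 3.10 to 32.8), against 15.5% of the whole NMDA list. Of the 18 control regions 2 were control-only, also 11.1% (3.10 to 32.8), against 9.22% of the whole control list. By this definition both shares were near those of the lists as a whole. With summits within 100 bp as the definition, 7 of 18 NMDA regions were NMDA-only, against 21.4% of the list, and 7 of 18 control regions control-only, against 15.9%. The intervals cover counting error only, and neighbouring regions are not independent. An NMDA-only region lay within 50 kb of 2 members, Egr1 and Egr3, as it did for 40.5% of protein-coding genes, and a control-only region within 50 kb of 1, Egr4, as for 25.8%.

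At Egr1, 1 long control region stood opposite 2 NMDA regions. The first NMDA region (34859781 to 34861072, 1292 bp) had its summit 1175 bp below the gene's lower-coordinate end, outside the span. Its −log10 p, the authors' value summed over the 2 replicates, was 502, rank 1298 of the NMDA list. The replicate columns held 253 (first) and 249 (second). These columns differ in scale, with medians of 32.1 and 56.1 over the NMDA list and the second column higher in 79.4% of regions. The second NMDA region (34861218 to 34863132, 1915 bp) had its summit 414 bp inside the gene, with a −log10 p of 64.9, rank 21854, and replicate values of 22.8 and 42.1. The control region (34859627 to 34862512) was 2886 bp wide, wider than 98.6% of the control list, with a −log10 p of 907 and rank 942. Since −log10 p grows with depth, only ranks are compared between lists.

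The gap between the NMDA parts was 145 bp, starting just outside the gene's lower-coordinate end and closing 11 bp inside the span. A region of the NMDA list is the union of the regions of its 2 replicates. Such a gap is therefore at least as wide in each replicate, here 292 bp in the first and 145 bp in the second. Per-replicate extents are not in the control list, so the same could not be looked at there. The control summit lay 1 bp from the summit of the first NMDA region and 1590 bp from that of the second. In rank percentile, where 100 is the strongest region of a list, the first NMDA region stood at 96.4 and the control region at 97.2, and the second NMDA region at 39.6. Over the whole series, 1.29% of shared control regions overlapped 2 or more NMDA regions, and 1 of the 16 shared control regions at the Egr loci did. In such cases the median gap was 134 bp over 401 gaps.

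At Egr3 the arrangement was the other way round, with 1 NMDA region over 2 control regions. The NMDA region (70074130 to 70076360, 2231 bp) had a −log10 p of 104, rank 16608, with 39.4 and 64.2 in the replicate columns, and its summit lay 2737 bp below the gene. The control regions were 1271 bp (70074102 to 70075372, −log10 p 124, rank 20438) and 945 bp wide (70075514 to 70076458, 62.1, rank 28379), with summits 2741 and 1316 bp below the gene. The gap between them was 141 bp, and the regions of both NMDA replicates ran across it. Of all shared NMDA regions 1.7% overlapped 2 or more control regions, as did 1 of 16 at the Egr loci. The summit of the NMDA region lay 4 bp from that of the farther control region and 1421 bp from that of the nearer one. The NMDA region ended 957 bp short of the gene span.

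**Figure D3:**
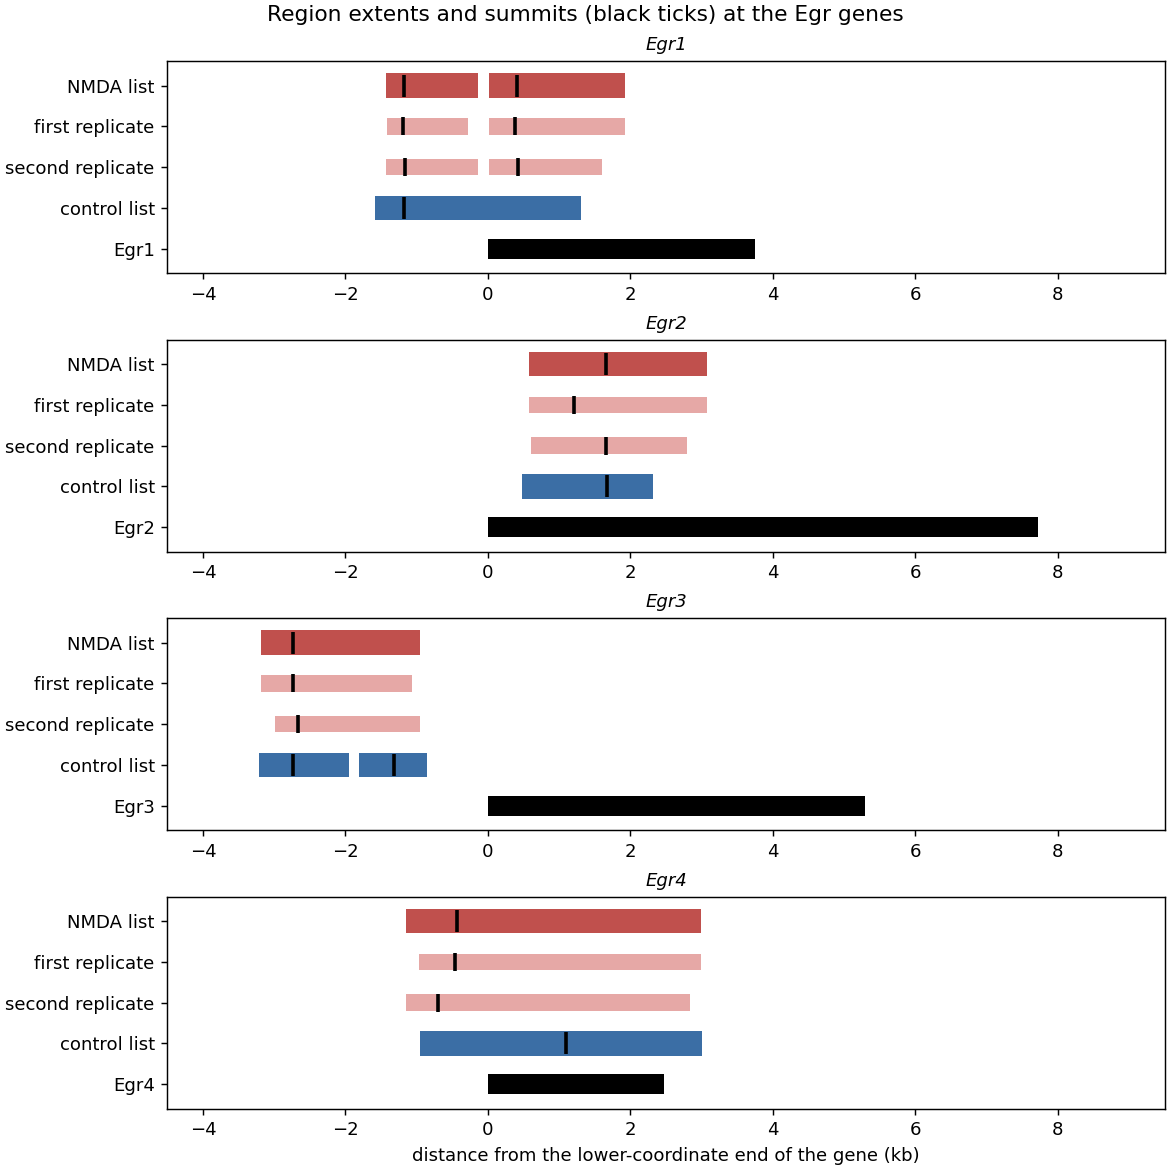
Extents of CTCF regions near each Egr gene (bars) and their summits (black ticks), by distance from the lower-coordinate end of the gene in kb. Rows give the NMDA list, its first and second replicate, the control list and the gene span. The Egr1 panel shows a gap of 145 bp in the NMDA list, and the Egr4 panel shows NMDA summits below the gene and the control summit inside it.

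At Egr4 both lists held 1 region over the whole gene, with the NMDA summit past an end of the gene and the control summit inside it. The NMDA region (85509978 to 85514120) was 4143 bp wide and the control region (85510169 to 85514128) 3960 bp, wider than 99.6% and 99.8% of their lists. The −log10 p was 159 in the NMDA list, rank 11571, with 53.5 and 105 in the replicate columns, and 306 in the control list, rank 8705. Ranked within each replicate column, the NMDA region stood at percentile 66.0 (first) and 69.5 (second). The NMDA summit lay 437 bp below the span, past the 3′ end of this minus-strand gene. The control summit lay 1103 bp inside the span and 1365 bp from the start site. The summits were 1540 bp apart. The NMDA replicates had their own summits 1562 and 1805 bp from the control summit, on the same side of it, and 243 bp from each other. Control summits per replicate are not in the list, so the spread between control replicates at this place is unknown.

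At Egr2 both lists held a strong region inside the gene, with list summits close together. The NMDA region (67535046 to 67537540, 2495 bp) had a −log10 p of 401, rank 2398, with 166 and 235 in the replicate columns. The control region (67534949 to 67536789, 1841 bp) had 1160.4 and rank 469, which made it the highest-ranked control region at the 4 loci. The list summits lay 14 bp apart, 1655 bp inside the lower-coordinate end for NMDA and 1669 bp for control. Both also lay inside the lncRNA gene Gm32255 (67496359 to 67536180), within 1 kb of its upper-coordinate end. The summits of the NMDA replicates were 449 bp apart, at 459 bp (first) and 10 bp (second) from the control summit. In percentile the NMDA region stood at 93.4, with 92.3 and 93.9 by the replicate columns, and the control region at 98.6, so both replicate columns lay below the control value.

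The Egr2 regions differed in where they ended. The NMDA region reached 751 bp farther toward the main start sites than the control region, and the 2 replicates reached 751 and 471 bp farther. The upstream promoter window printed above lay whole under both regions. Of the middle window 225 of its 300 bases lay under the NMDA region, all 225 from the first replicate, and 0 under the control region. The main window lay under neither, with its start site 329 bp beyond the NMDA region and 1080 bp beyond the control region. The Egr4 window lay whole under both regions, with its start site 2905 bp from the NMDA summit and 1365 bp from the control summit.

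The other regions in the Egr1 window lay at neighbouring genes or between genes. Inside Kdm3b, which encodes a histone demethylase, a weak and a stronger shared region had summits 37223 and 27381 bp below Egr1 in the NMDA list, at the 19.7th and 66.1st percentile, against 24.3 and 70.3 for their control partners. The region over the lncRNA gene Gm41689 (NMDA 34848927 to 34851094, control 34849243 to 34851111) stood at 90.9 in NMDA and 86.5 in control. Its NMDA summit lay 10905 bp below Egr1. It was wide, at 2168 bp in NMDA and 1869 bp in control.

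On the other side, toward Etf1, which encodes a translation termination factor, 4 shared pairs had NMDA summits 22729 to 35680 bp beyond Egr1. The nearest (NMDA 34887194 to 34888107, control 34886994 to 34888127) stood at percentile 29.3 in NMDA and 15.5 in control. The second (NMDA 34888583 to 34889430, control 34888678 to 34889820) stood at 27.5 and 35.3. Their replicate columns, 48.5 and 14.6 for the nearest and 44.0 and 16.3 for the second, lay on both sides of the control value. The one 33545 bp beyond Egr1 (NMDA 34897741 to 34899231, control 34897733 to 34898972) stood at the 35.9th percentile in NMDA and the 12.8th in control. Both replicate columns, at 38.9 and 35.9, were above the control value. The next (NMDA 34900108 to 34901473, control 34899991 to 34901295) stood at 56.4 in NMDA, with replicate columns at 61.4 and 54.3, and at 75.6 in control. The differences of the pairs 33545 and 35680 bp beyond Egr1, NMDA minus control, thus had opposite signs, at 23.1 and −19.3 percentile points.

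The 4 regions found in 1 list only stood low in the ranks of that list. The NMDA-only region at Egr1 (34889829 to 34890951, −log10 p 26.7, replicate columns 8.20 and 18.5) stood at percentile 10.1, with 8 bases between it and a control region. The NMDA-only region at Egr3 lay inside Bin3 (70109256 to 70109867, −log10 p 19.5, replicate columns 9.02 and 10.5), at percentile 1.10, with the nearest control region 12208 bp away. The control-only regions at Egr4 lay in Cct7, a chaperonin subunit gene (85462702 to 85463239, −log10 p 42.6), at percentile 4.70, and at the upper-coordinate end of Fbxo41, an F-box protein gene (85501296 to 85503228, 74.7), at percentile 22.3. The Fbxo41 region was wide, at 1933 bp, and the nearest NMDA region lay 6749 bp away, over Egr4 itself. Its score for reproducibility was at the ceiling of 1000, where the other list-only regions scored 587 to 658.

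The remaining shared regions were of middle or low rank. At the Ado gene next to Egr2, which encodes a thiol dioxygenase, the region had a −log10 p of 41.8 in NMDA, with 21.7 and 20.0 in the replicate columns, and of 49.1 in control. It stood at the 25.6th percentile in NMDA, with replicate columns at 36.8 and 20.8, and at 8.80 in control. Between Egr3 and Bin3 a region stood at 41.6 in NMDA and 33.0 in control. At Egr4 the shared regions in Cct7 and Fbxo41 stood at 41.6 and 49.3 in NMDA and at 47.4 and 50.2 in control. In the Cct7 region the NMDA replicate columns were 7.20 and 51.5, the widest gap among the 18 NMDA regions.

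Rank differences between the lists had no common direction at the Egr loci. Each of the 16 shared control regions was paired with its strongest overlapping NMDA region, and the percentile of the NMDA region minus that of the control region was taken. The NMDA partner stood lower in 9 of 16 pairs and higher in 7, where 37.5% of the 30698 pairs of the whole series stood lower. The median difference was −0.9 percentile points at the Egr loci, with a range from −19.3 to 38.0, and 2.6 over all pairs. Its sign depended on the ranking, since the median at the Egr loci was 6.6 by the first replicate column alone and 1.1 by the second. The highest value, 38.0, belongs to the second control region at Egr3, which shares its NMDA partner with the first.

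The gap between the 2 NMDA replicate columns, each ranked over the list, gives the replicate spread. At the Egr loci it had a median of 7.0 percentile points and ran from 0.7 to 44.2, and over all NMDA regions its median was 9.28. The difference between the lists exceeded that gap in 8 of 16 pairs, against 40.4% of all pairs. In all 8 both replicate columns lay on 1 side of the control value. That adds little, since of the 12402 pairs of the whole series above their gap it held in 12351, or 40.2% of all pairs. Of these 8, the NMDA region stood lower at Egr2, at Egr4 and in 1 region toward Etf1. It stood higher at the Gm41689 region, the other region toward Etf1, the Ado region and the 2 Egr3 pairs that share 1 NMDA region. The spread between control replicates is not in the files and would add to this gap.

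**Figure D4:**
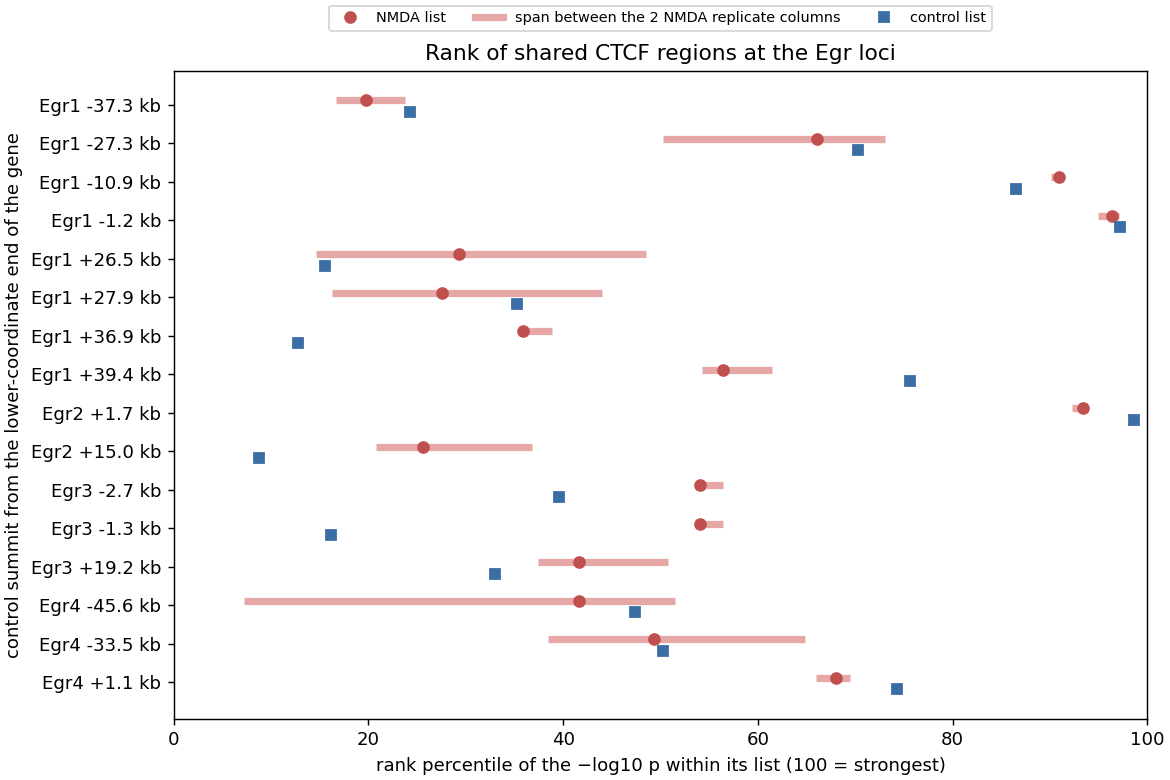
Rank percentile within its list (x axis, 100 is strongest) of the strongest NMDA partners (red circles, with pink bars between the 2 replicate columns) of the 16 shared control regions at the Egr loci (blue squares). Rows are labelled by the distance of the control summit from the lower-coordinate end of the gene. In 8 of 16 rows the circle lies farther from the square than the pink bar is long, and the widest pink bar, of 44.2 points, belongs to the Cct7 region at Egr4.

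List summits were farther apart at the Egr loci than in most pairs of the series. Their median distance was 36.5 bp, against 18 bp over all pairs, where the upper quartile was 35 bp. The difference was not tested. In 11 of 16 pairs list summits lay within 57 bp of each other. In 5 they were over 100 bp apart, against 7.49% of all pairs. The 5 were at Egr4 itself (1540 bp), at the second control region of Egr3 (1421 bp), 33545 bp beyond Egr1 (409 bp), at Ado (277 bp) and in the weaker Kdm3b region (119 bp). The NMDA partner of that Egr3 region is also the partner of the first control region, with summits 4 bp apart. A summit in the list is not always a summit of a replicate. In 83.6% of NMDA regions it lay within 1 bp of the midpoint of the 2 replicate summits, but in only 44.2% of the 4229 regions over 2000 bp wide, and at the Egr loci in 11 of 18. At the Gm41689 region the list summits were 9 bp apart, while the replicate summits of NMDA lay 753 and 764 bp from the control summit. At Ado the NMDA replicate summits were 685 bp apart, at 66 and 619 bp from the control summit, a gap wider than the list distance of 277 bp. For the pair 33545 bp beyond Egr1, they lay 63 and 90 bp from it, nearer than the list summit at 409 bp.

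Most other genes of the Egr pathway carried a CTCF region found in both lists. The genes looked at were 10 upstream kinases and factors, 3 co-regulators and 7 known Egr targets, counted over the gene span widened by 1 kb. A shared region lay at 15 of the 20 genes, against 48.3% of protein-coding genes. A region of 1 list only lay at 5, against 20.8%, with 4 NMDA-only and 1 control-only. Gene length was not matched, and the long gene Mrtfa held 6 NMDA regions. Upstream, 9 of 10 genes had a shared region. The strongest in the NMDA list was at Srf (chromosome 17, 46554814 to 46556460), at the 94.1st percentile in NMDA and the 92.8th in control, and the strongest in the control list was at the kinase gene Map2k1, at 90.6 in NMDA and 95.3 in control.

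NMDA-only regions lay at the ternary complex factor gene Elk4, at the SRF coactivator genes Mrtfa and Mrtfb and at Tet1, a DNA demethylase gene. Their percentiles in the NMDA list were 10.7 for Elk4, 9.80 for Mrtfa, 18.2 and 4.70 for the regions of Mrtfb, and 10.9 for Tet1. Nab2, an Egr co-repressor gene that Egr proteins induce, had a control-only region (chromosome 10, 127665473 to 127666896, percentile 10.0) and a shared one at 53.8 in NMDA and 60.5 in control. Nab1 had none. Of the targets, Cdk5r1, Ngfr, Syn1 and Pmp22 had shared regions, and Arc and Gabra4 had no region in either list. Pmp22, a myelin gene, had the strongest target region in the NMDA list, at the 98.0th percentile, against 94.4 in control. Ngfr, a neurotrophin receptor gene, had the strongest in the control list, with 95.6 in NMDA and 98.3 in control.

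Regions in the same windows around other immediate early transcription factor genes were also mostly found in both lists. Over the whole lists 15.5% of regions were NMDA-only and 9.22% control-only. The 7 AP-1 genes, from Fos to Jund, had 51 NMDA regions, of which 8 or 15.7% were NMDA-only (8.17 to 28.0), and 47 control regions, of which 2 or 4.26% were control-only (1.17 to 14.2). The 3 Nr4a nuclear receptor genes had 18 NMDA regions with 1 NMDA-only and 17 control regions with 2 control-only. These intervals overlapped those of the Egr loci, and differences between the families were not tested. Summits over 100 bp apart made up 4 of 45 AP-1 pairs and 3 of 15 Nr4a pairs, beside 5 of 16 at the Egr loci. Over all pairs of the series the share was 7.49%.

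Within 1 kb of the spans of these genes, Fosb and Nr4a1 had an NMDA-only region, at percentiles 9.60 and 4.80 of the NMDA list. Fosl1 and Nr4a1 had a control-only one, at percentiles 6.90 and 9.80 of the control list. A region of 1 list only thus lay at 2 of 7 AP-1 and 1 of 3 Nr4a genes, against 20.8% of protein-coding genes. The strongest shared AP-1 region was at Fosb, at 94.9 in NMDA and 94.1 in control. The strongest Nr4a region was at Nr4a2 in the NMDA list, at 47.3, and at Nr4a3 in the control list, at 73.2.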

How the data were processed

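CTCF ChIP-seq lists of the NMDA and control groups were used, 1 of each, and the input libraries were not used here. The submitters' processing notes name MACS2, BWA, SAMtools, Trimmomatic and FastQC, with the builds mm10 and GRCm38.p6. Tool versions: not given in the sources used here. The lists have the layout of irreproducible discovery rate (IDR) output, with the lowest score that the authors deposited at 540 in both and a ceiling of 1000. The signal ranked was the −log10 p-value that the authors deposited. In 36186 of 36186 NMDA regions it equalled the sum of 2 replicate columns (tolerance 0.001), and the region was the union of the replicates' regions. No source used here ties a column to a numbered replicate. The control list has no replicate columns.

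Regions on unplaced sequences were left out (7 NMDA, 5 control). Overlaps, ranks and counts were computed in Python 3.11.15 with pandas 2.3.3 and numpy 2.4.6, intervals with scipy 1.17.1. The overlap steps were tested on simulated data. Percentiles of regions give the share of the list at or below a value. Percentiles among genes place a gene at the middle of the genes with the same count. Samples were grouped by title. With 1 list per condition no test was made. Alternatives were other flanks, list lengths, scores and definitions of shared regions, and each replicate column alone. The percentiles among genes with short spans were added after seeing the data. Every region at the 4 loci was named, and of the other lists the members with list-only regions and the strongest shared one. Some genes of those lists are not reported here by name. The members and lists were chosen with earlier results of these data known. The region sequences, and the promoters of Egr1 and Egr3, were not used here.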

Additional observations from a re-analysis of the deposited data

How the results depend on the processing

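No paired analysis was possible because each condition has 1 list built over both replicates. For the same reason no replicate could be left out, and each NMDA replicate column was ranked alone instead. Ranking by the signal value could not be run, since that column holds −1 in both lists. With flanks of 20 kb the Egr loci held 8 NMDA and 9 control regions, with 0 NMDA-only and 1 control-only. With flanks of 100 kb they held 32 and 29, with 6 NMDA-only regions. NMDA-only regions at 50 kb numbered 4 with a reciprocal overlap of 50%, 7 with summits within 100 bp, 1 with regions extended by 500 bp and 1 with lists of equal length. Control-only regions numbered 4 with the reciprocal overlap and 7 with the summit definition. By an overlap of 1 bp the shares at the Egr loci were near the background. By the summit definition they were higher in both lists. No interval was taken for those counts, so whether they depart from the background was not tested. Over the whole lists the reciprocal and summit definitions gave 20.4% and 21.4% NMDA-only and 14.8% and 15.9% control-only. Extension by 500 bp gave 4 split control regions in place of 1. The median rank difference was −0.9 points in the main ranking, 6.6 by the first replicate column, 1.1 by the second and −3.1 among shared regions. The sign turned in 5 pairs, by the first column for the region 24113 bp beyond Egr1 (8.8) and for the Fbxo41 region (14.6), and by the second for the stronger Kdm3b region (2.8), the region 22714 bp beyond Egr1 (−0.9) and the Cct7 region (4.1). The cause was not tested. A score of at least 830 and placing by overlap left the counts within 1.5 times. Read depth is unknown, so a missing region does not show absent binding.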
